A study of Drepana arcuata with 6 samples.

Results

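In whole larvae of the masked birch caterpillar, Drepana arcuata, 127 abundant genes held nearly the same level in late and early instars. They were picked by their levels: each had at least 100 CPM (the counts of all its isoforms per 1000000 counts of the library) in all 6 libraries, and its highest library was at most 1.3 times its lowest. Of the 116079 Trinity genes in the tables, 1373 reached the first limit, and 127 of these met both. The other 1246 abundant genes served for comparison. A Trinity gene is a set of assembled transcripts that share sequence, and its members are called isoforms here, although paralogs, alleles and assembly variants can be among them. No gene listed by name in the study's tables met both limits, so none had to be dropped.

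The late group was 3 pools of 5 solitary larvae each (instars IV and V), and the early group was 3 pools of 20 group-living larvae each (instars I and II). All larvae came from eggs of 1 female, fed on paper birch leaves and received no treatment. Each pool mixed its 2 instars, in about equal numbers in the early pools and with more larvae of instar IV than of V in the late pools. In whole larvae, fewer cells of a type and less RNA per cell cannot be told apart, and no annotation of these contigs was used here with which tissue markers could be checked. Library totals ran between 15109224 and 35571272 counts in late instars and between 11177800 and 46307057 in early instars. The level limit of 100 CPM is therefore 1118 counts in the shallowest library, where counting alone gives a coefficient of variation of 2.99%, and 4631 counts in the deepest, where it gives 1.47%.

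Genes whose transcripts stay level through growth and moulting commonly serve basic cell functions such as translation, energy metabolism, the cytoskeleton and protein turnover. Such genes are often used as internal references when transcript levels are measured by quantitative PCR. A caterpillar moults between instars while tissues such as gut, fat body, silk glands and muscle grow at different rates, so a level that is constant in a whole-larva extract is an average over tissues. The genes described here are known by contig identifiers, and their functions were not assigned.

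Because the rule used the levels, these are a description. The median of the highest-to-lowest ratio over the 6 libraries was 1.24 in the steady genes and 1.73 in the other abundant genes. Ratios crowded towards the limit: 60 of the 127 lay above 1.25, 38 between 1.2 and 1.25, 14 between 1.15 and 1.2, 13 between 1.1 and 1.15, and 2 at or below 1.1. Over the 3 late libraries the median ratio was 1.12 and over the 3 early libraries 1.14, which cannot exceed the ratio over all 6. Most were only moderately abundant, since 75 averaged less than 200 CPM, 31 had 200 to 300 CPM, and 6 had more than 500 CPM. Their median mean level was 169 CPM, against 244 CPM in the other abundant genes. Together they took 3.65 to 3.85% of the counts of a late library and 3.60 to 3.88% of those of an early library.

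**Figure D1:**
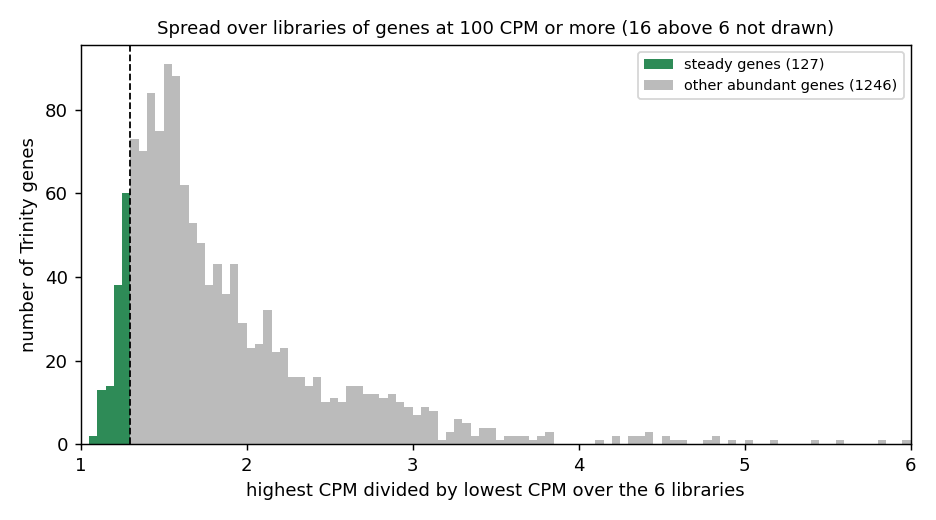
Number of Trinity genes (vertical axis) by the highest CPM divided by the lowest CPM over the 6 libraries (horizontal axis), for the 1373 genes with at least 100 CPM in every library; green bars are the 127 steady genes, grey bars the other 1246, and the dashed line is the limit of 1.3. The counts climb through the limit without a gap, and 16 genes with ratios above 6 are not drawn.

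The genes of highest level were led by short contigs. TRINITY_DN22374_c4_g4, whose longest isoform has 296 bp, had 9347, 7323 and 7835 CPM in late replicates 1 to 3, against 8235, 7653 and 9295 CPM in early replicates 1 to 3. The 2 stages overlapped fully, with the highest value in late replicate 1 and the lowest in late replicate 2. TRINITY_DN22423_c2_g2 had 1976, 1837 and 1915 CPM in the late libraries, against 1682, 1541 and 1642 CPM in the early ones. Here every late library lay above every early one, by a log2 fold change of 0.20 (SE 0.15). TRINITY_DN22647_c1_g2, a gene of 22 isoforms up to 7281 bp long, had 954, 956 and 976 CPM in late instars, against 896, 831 and 903 CPM in early instars. Its late libraries again stood apart and above, with a log2 fold change of 0.10 (SE 0.16).

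Some of the abundant genes lay on the other side. TRINITY_DN15110_c2_g2 had 643, 698 and 691 CPM in late libraries, against 818, 759 and 827 CPM in early libraries, a log2 fold change of -0.28 (SE 0.16). The single-isoform gene TRINITY_DN19725_c5_g1 had 447, 431 and 450 CPM in the late pools, against 519, 473 and 545 CPM in the early pools, with a log2 fold change of -0.25 (SE 0.16). In both genes the highest late library was below the lowest early one. The stages overlapped in TRINITY_DN21112_c3_g2, with late means of 649 ± 25.3 CPM and early means of 739 ± 62.3 CPM (SD, n = 3 each). TRINITY_DN13289_c1_g1 likewise overlapped, at 597 ± 27.6 CPM in late and 566 ± 70.3 CPM in early libraries (SD, n = 3 each). TRINITY_DN18140_c3_g1 overlapped too, at 458 ± 23.0 and 488 ± 29.96 CPM in late and early libraries (SD, n = 3 each), and it returns below because its isoforms divided this level differently.

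**Figure D2:**
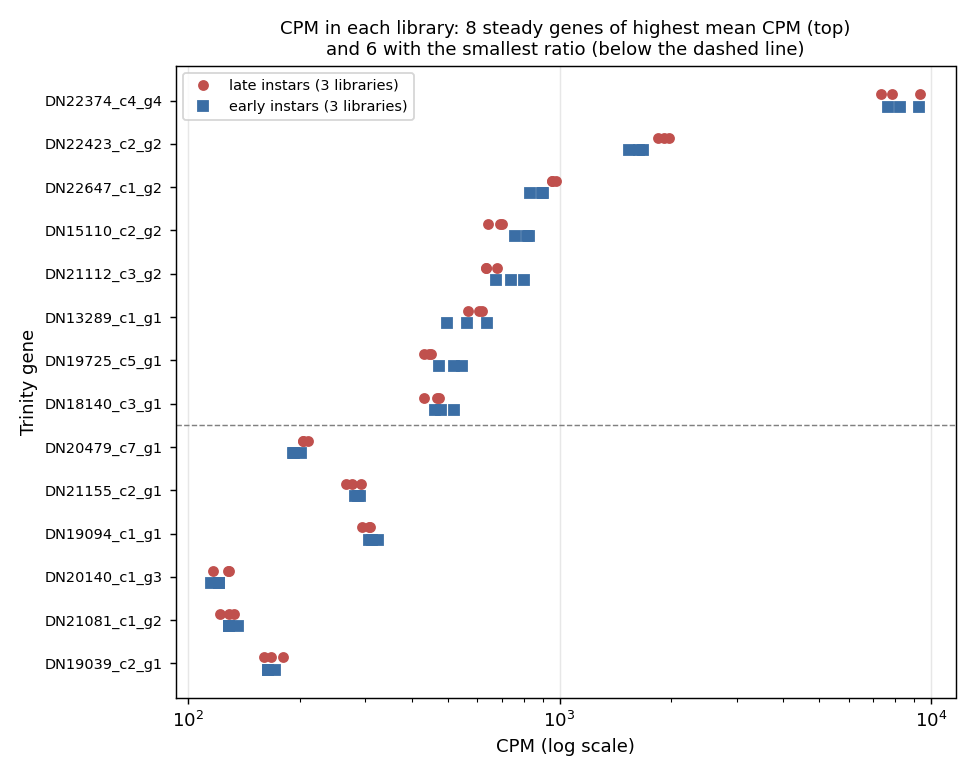
CPM (horizontal log axis) in each library of the 8 steady genes of highest mean level, above the dashed line, and the 6 with the smallest highest-to-lowest ratio, below it; red circles are the 3 late libraries, blue squares the 3 early libraries, and the prefix TRINITY_ is left out of the names. The levels run between 115 and 9347 CPM, while the 6 points of any gene stay within a factor of 1.3.

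The least variable gene was TRINITY_DN20479_c7_g1, with 204, 204 and 210 CPM in late instars, against 191, 193 and 201 CPM in early instars, a ratio of 1.098. All late values were above all early ones in it. TRINITY_DN21155_c2_g1 had 266, 293 and 276 CPM in late libraries, against 288, 290 and 281 CPM in early libraries. TRINITY_DN19094_c1_g1 had 307, 294 and 308 CPM in late libraries, against 312, 308 and 324 CPM in early libraries. Their ratios were 1.099 and 1.102, and in both the stages overlapped. TRINITY_DN20140_c1_g3, TRINITY_DN21081_c1_g2 and TRINITY_DN19039_c2_g1 followed with ratios of 1.12.

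At the edge of the rule the margins were narrow. Just inside the ratio limit were TRINITY_DN22040_c0_g1 and TRINITY_DN16002_c1_g1, both at 1.297, and TRINITY_DN15078_c1_g1 at 1.299. Just outside were TRINITY_DN20959_c0_g1 and TRINITY_DN17540_c4_g1, both at 1.301, and TRINITY_DN20857_c2_g2 at 1.302. The lowest library of TRINITY_DN20550_c0_g2 had 100.3 CPM and that of TRINITY_DN20252_c0_g1 had 101.2 CPM, which kept them in, while TRINITY_DN21244_c0_g2 at 99.7 CPM and TRINITY_DN18723_c2_g1 at 98.8 CPM were left out.

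The spread between the larval pools, which the rule used, is set beside counting error only for scale. Over the 6 libraries their coefficient of variation ran between 3.13 and 11.3%, with a median of 8.39%, whereas counting alone would give a median of 1.62%. The chi-square of the counts per degree of freedom was above 10 in 117 of the 127 genes, with a median of 32.4. Late replicate 1 held the highest value of 32 genes and early replicate 3 that of 31, and early replicate 2, the shallowest library, held the lowest value of 30. The median deviation of the genes from their own means was between -2.49 and 0.748% in the late libraries and between -2.31 and 0.600% in the early libraries. In the other abundant genes it was between -11.9 and -5.61% in late and between 0.620 and 5.78% in early libraries.

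By stage means, 62 genes were higher and 65 lower in late than in early instars, with late-to-early ratios between 0.825 and 1.18 and within a factor of 1.1 in 86 genes. All 3 late libraries were above all 3 early ones in 18 genes (14.2%), against 22.0% of the 22132 genes tested, and below them in another 18 (14.2%), against 22.0%. The stages thus stood apart in 28.3% of the genes, against 44.0%, and overlapped in the other 91. The gene-level quasi-likelihood test of edgeR called none of the 127 at an adjusted p of 0.05, against 29.7% of all genes tested, and 0 had an unadjusted p under 0.05, against 40.3%; the exact test of edgeR and DESeq2 also called 0 on both counts. As the rule used this contrast, nothing is read from these counts. The fitted log2 fold changes (late over early) ran between -0.31 and 0.20 with a median of -0.04, and the SE of one gene was typically 0.17.

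What a library not used in the choice would show was looked at by picking genes on 5 libraries and reading the sixth. Of 212 genes chosen without late replicate 1, 59.9% stayed within 1.3 once it was added (95% exact binomial interval 53.0 to 66.6%, which covers counting of genes only, and genes are not independent). The share was 56.95% of 223 for late replicate 2 and 91.4% of 139 for late replicate 3. For early replicates 1, 2 and 3 it was 56.2% of 226, 68.3% of 186 and 61.1% of 208. The genes that stayed were the same 127 each time, so these shares differ only by the number chosen and are not separate checks. Late replicate 3 thus removed few of the genes that the other libraries had kept, and each of the others removed more. Late replicate 2 departed furthest in number, since 12 of its 223 genes lay more than 1.5-fold from their mean in the other 5 libraries, by up to 2.88-fold, while late replicate 1 had 5 such genes, by up to 3.03-fold.

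**Figure D3:**
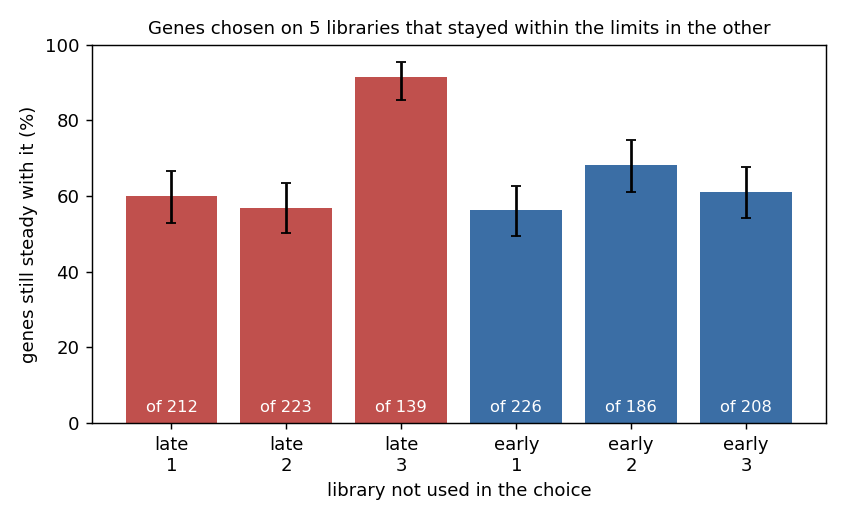
Percent of genes (vertical axis) chosen on 5 libraries that still met both limits when the library named on the horizontal axis was added, with the number chosen inside each bar; red bars are late and blue bars early libraries, and error bars are 95% exact binomial intervals. Late replicate 3 stands at 91.4%, above the others at 56.2 to 68.3%.

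Steadiness within a stage was far more common than steadiness across stages, partly by construction, since the range over 3 libraries is no wider than that over all 6. In the 3 late libraries alone 948 genes met both limits, and 127 of these (13.4%) met them over all 6. Their late and early means were within a factor of 1.3 in 551 (58.1%), while 61 differed more than 2-fold and 14 more than 4-fold. In the 3 early libraries alone 910 genes met the limits, of which 536 (58.9%) had stage means within a factor of 1.3, 67 differed more than 2-fold and 12 more than 4-fold. The share steady over all libraries depended on their number: of the genes steady in late instars it was 23.8% without early replicate 1 and 21.9% without early replicate 3, and of those steady in early instars 23.3% without late replicate 1 and 24.5% without late replicate 2. A set of 467 genes was steady within each stage taken by itself. Among these, 41 had a late mean more than 1.3 times the early mean and 105 had a late mean lower than the early mean by more than that factor.

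The unit mattered for these genes. TPM, the RSEM measure of transcript abundance, divides counts by effective transcript length and scales each library to the same sum, and is the scale on which levels of different genes can be compared. In TPM the ratio of highest to lowest had a median of 1.36, and 46 of the 127 genes stayed within 1.3. Late replicate 1 held the highest TPM of 62 genes and early replicates 1 and 3 the lowest of 40 and 41. The genes' median deviations in TPM were 11.1, 3.50 and 4.12% in late replicates 1 to 3, against -6.65, -6.24 and -7.11% in early replicates 1 to 3, so that every late library lay above every early one. The same displacement was seen in the genes at large: the median log2 ratio of late to early means over all genes tested was 0.22 in TPM and 0.03 in CPM, and in the steady genes it was 0.18 and -0.0042. When each library's TPM was divided by the median TPM-to-CPM ratio of its abundant genes, a choice made after seeing the data, 90 of the 127 stayed within 1.3. The limits were met on plain CPM, CPM with TMM factors, CPM with RLE factors and TPM alike by 4 genes: TRINITY_DN14440_c7_g6, TRINITY_DN21929_c0_g6, TRINITY_DN15092_c1_g1 and TRINITY_DN18788_c1_g8. The limit of 100 is a different level in TPM, which long transcripts reach less often.

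**Figure D4:**
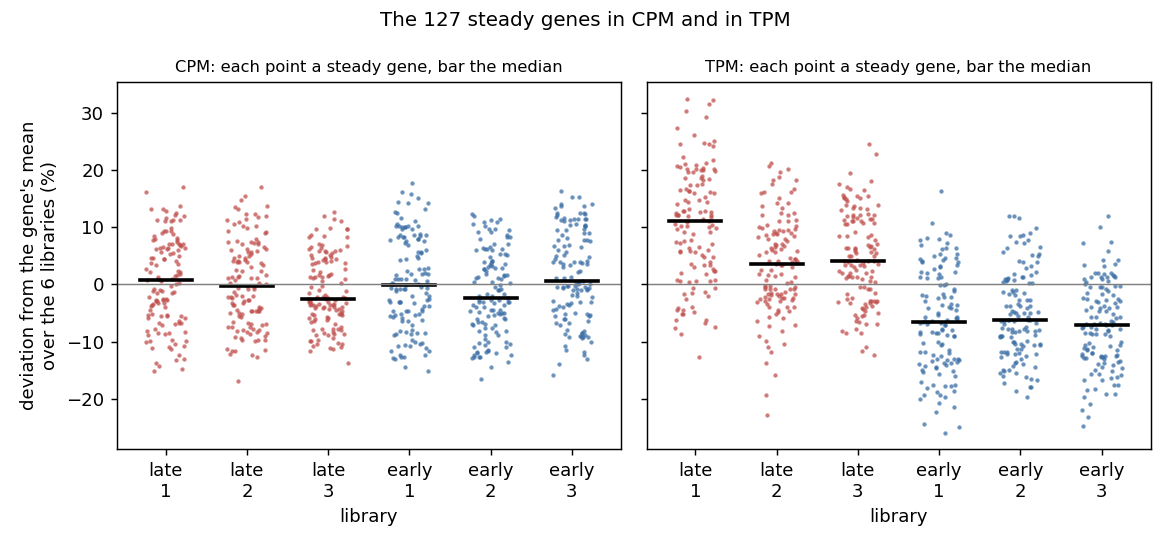
Deviation of each of the 127 steady genes from its own mean over the 6 libraries, in percent (vertical axis), by library (horizontal axis), in CPM on the left and in TPM on the right; red points are late and blue points early libraries, and black bars are medians. The medians lie between -2.49 and 0.748% in CPM, and in TPM the late libraries lie at 3.50 to 11.1% and the early ones at -7.11 to -6.24%.

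Per unit length the steady genes spanned 6.07 to 31350 TPM, with a median of 32.5 TPM, against 74.9 TPM in the other abundant genes. TRINITY_DN22374_c4_g4, of 230 bp in its leading isoform, was at the top with 37501, 31117 and 29988 TPM in late libraries, against 30247, 28450 and 30801 TPM in early libraries. TRINITY_DN22423_c2_g2 averaged 2962 TPM and TRINITY_DN15110_c2_g2 averaged 1510 TPM, with leading isoforms of 464 and 334 bp. In TPM their highest-to-lowest ratios were 1.63 and 1.15, and that of TRINITY_DN22374_c4_g4 was 1.32. Every late TPM of TRINITY_DN22423_c2_g2 was above every early one. The 10 genes of highest TPM all had leading isoforms of at most 464 bp, and effective lengths of such short contigs are estimated with less certainty. TRINITY_DN19236_c1_g1, one of these 10 with a leading isoform of 249 bp, had 398, 408 and 393 TPM in late instars, against 421, 399 and 408 TPM in early instars. That is a ratio of 1.07 in TPM, where its stages overlapped, against 1.28 in CPM. It was singled out after its values were seen.

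Beyond level, the steady genes had more and longer isoforms than the other abundant genes. The median number of isoforms was 8, against 6 in the other abundant genes and 4 in all genes tested. A single isoform was found in 7.87% of the steady genes, against 15.4% of the other abundant genes, and 10 or more isoforms in 35.4%, against 26.6%. The longest isoform had a median of 2756 bp, against 1785 bp in the other abundant genes and 1487 bp in all genes tested. It ran between 236 and 10726 bp and was above 5 kb in 18.1% of the steady genes, against 13.0% of the others. These are descriptions without a test. Length and isoform number went together with being steady, and the part of one in the other was not tested.

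How the level of a gene divides between its isoforms was not used by the rule, and could be tested. Of the 127 genes, 108 had at least 2 isoforms with more than 1 CPM in at least 2 libraries, with 596 tested isoforms in all 127. The leading isoform, that of highest mean CPM over the 6 libraries, held a median of 65.9% of the counts in the steady genes. This was close to 67.8% in the other abundant genes. The same isoform led in all 6 libraries in 82 of the 108 genes (75.9%, against 78.8%). The share of the leading isoform differed between stage means by a median of 2.84 percentage points. It differed by more in a few genes, up to 42.0 points in TRINITY_DN21882_c0_g1, where it was 29.9 points in shares of TPM. The gene-level usage test (diffSpliceDGE of edgeR, adjusted p at most 0.05) called 13 of the 108 steady genes, 12.0%, against 5.76% of all 11676 genes tested and 6.71% of the other abundant genes. With limma diffSplice 10 were called (9.26%), against 4.21% of all genes and 6.21% of the other abundant genes. Of the steady genes, 8 were called by both tools. The difference between these percentages was not tested, and the steady genes had more isoforms than either set and a higher median level (169 CPM) than genes tested at large (9.74 CPM). The rule also chose genes whose sums varied little between libraries. Their gene-level log2 fold changes had a median SE of 0.166, against 0.204 in the other abundant genes. The usage percentages are therefore not fully independent of the rule. Leaving out late replicate 2 moved the edgeR count from 13 to 22 in the steady genes and from 673 to 960 in all genes. Without early replicate 2 or late replicate 3 the count was 8 in the steady genes, and 541 and 588 in all genes.

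The strongest change of usage was in TRINITY_DN21882_c0_g1, the gene with most isoforms, 43. Its summed level was 130, 128 and 127 CPM in late libraries, against 138, 146 and 123 CPM in early libraries. Within it, isoform i38 (6407 bp) held 56.9, 37.3 and 58.3% of the counts in late libraries, against 4.25, 9.68 and 12.5% in early libraries. Every late share was above every early one. Isoform i10 (6275 bp) did the opposite, with 0, 0 and 1.36% in late libraries, against 20.1, 15.2 and 18.0% in early libraries. Tested singly by edgeR quasi-likelihood, i38 had an adjusted p of 0.0224 and was called in 9 of 13 alternatives (up to 0.106). Isoform i10 was not called in that test (log2 fold change -5.56, SE 1.77, adjusted p = 0.119). Isoform i22 held 15.7 ± 4.88% in late and 23.5 ± 7.54% in early libraries (SD, n = 3 each), and its stages overlapped. The leading isoform thus changed: i38 led every late library, i22 led early replicates 1 and 2, and i10 led early replicate 3. The edgeR usage test gave an adjusted p of 9.68e-07, and over 12 alternatives it stayed between 4.68e-09 and 0.00661.

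In TRINITY_DN20252_c0_g1 the leading isoform also changed. Isoform i6 (5788 bp) held 58.1, 50.5 and 67.2% in late libraries, against 25.3, 21.5 and 29.1% in early libraries. Isoform i1 (5823 bp) held 22.9, 26.2 and 16.6% in late libraries, against 35.8, 33.7 and 35.0% in early libraries. Isoform i6 therefore led in all late libraries and i1 in all early ones, at a summed level of 111 ± 3.37 CPM in late and 103 ± 3.03 CPM in early instars (SD, n = 3 each). The adjusted p of the edgeR usage test was 5.90e-06. It was past the threshold in 11 of 12 alternatives, between 2.21e-06 and 0.109, the last from the Simes combination of isoform tests.

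TRINITY_DN20550_c0_g2 showed an isoform seen in 1 stage. Its isoform i3 (1211 bp) held 24.8, 28.2 and 26.5% in late libraries, 1126, 1007 and 502 expected counts, and was listed at 0 in every early library. Set against a floor of 3 counts over the 3 early libraries together, it was at least 908-fold higher in late instars. Tested singly by edgeR quasi-likelihood, it had an adjusted p of 0.00296 and was called in 12 of 13 alternatives (up to 0.0819). The leading isoform i5 (1366 bp) held 52.9, 52.8 and 52.9% in late libraries, against 74.6, 73.9 and 72.5% in early libraries. Its stages stood apart with little spread inside either. The adjusted p of the edgeR usage test was 5.33e-06, and between 2.75e-07 and 0.00225 over 12 alternatives.

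The other genes with the smallest p changed in smaller shares. TRINITY_DN18140_c3_g1, of 26 isoforms, had its leading isoform i22 at 54.9, 48.2 and 47.6% in late libraries, against 35.5, 42.7 and 48.7% in early libraries. These overlapped, although the edgeR usage test over all its tested isoforms gave an adjusted p of 2.21e-06, and 0.0303 with limma. The isoforms that differed most were minor: i26 had 6.87, 4.83 and 1.88 CPM and i10 had 1.05, 0.915 and 1.79 CPM in late libraries, and both were listed at 0 in all early libraries. They were at least 123-fold and at least 33.9-fold higher in late instars, against a floor of 3 counts over the early libraries. Tested singly by edgeR quasi-likelihood, i26 had an adjusted p of 0.0165 and was called in 11 of 13 alternatives (up to 0.132). Isoform i10, at 0.277% of its gene in late libraries, had an adjusted p of 0.0425 in that test. It was called in only 4 of 10 alternatives (up to 0.272). In TRINITY_DN20774_c1_g2 isoform i13, leading over all 6 libraries, held 27.0, 31.6 and 22.3% in late libraries, against 36.1, 47.5 and 29.3% in early libraries. These shares overlapped. The next isoform, i9, held 34.8, 27.3 and 39.1% in late libraries, against 15.9, 11.3 and 26.1% in early libraries, and did not overlap. Isoform i9 was above i13 in late replicates 1 and 3 and in the mean late share (33.8 against 27.0%). It was below i13 in late replicate 2 and in every early library. The adjusted p of the gene was 1.29e-04 in the edgeR usage test and 0.667 by the Simes combination, the highest of 12 alternatives.

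Genes with one dominant isoform also differed in the remainder. In TRINITY_DN18314_c0_g2 isoform i4 held 99.4, 99.3 and 99.3% in late libraries, against 94.3, 94.8 and 96.1% in early libraries (edgeR usage test, adjusted p = 3.89e-04, but 0.290 with limma). In shares of TPM in place of counts, the difference was 2.15 and not 4.26 percentage points. In TRINITY_DN17099_c3_g2 isoform i2 held 98.1, 97.8 and 98.3% in late libraries, against 86.8, 89.9 and 89.5% in early libraries (edgeR usage test, adjusted p = 0.00366, past the threshold in 11 of 12 alternatives and at most 0.0868). Neither gene's stages overlapped in these shares. The least variable gene by level, TRINITY_DN20479_c7_g1, has 2 isoforms, and i1 (2756 bp) held 71.8, 79.9 and 77.3% in late libraries, against 53.6, 52.3 and 61.3% in early libraries. Its adjusted p of 0.0121 in the edgeR usage test was past the threshold in 6 of 12 alternatives, and missed it without early replicate 1 (0.0638), early replicate 2 (0.0833) or late replicate 3 (0.0767). The remaining called genes, TRINITY_DN22124_c5_g2, TRINITY_DN21159_c1_g1, TRINITY_DN22148_c1_g1, TRINITY_DN21594_c0_g1 and TRINITY_DN20888_c3_g2, had adjusted p between 0.0156 and 0.0491 in that test and kept it in 2 to 7 of 12 alternatives.

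**Figure D5:**
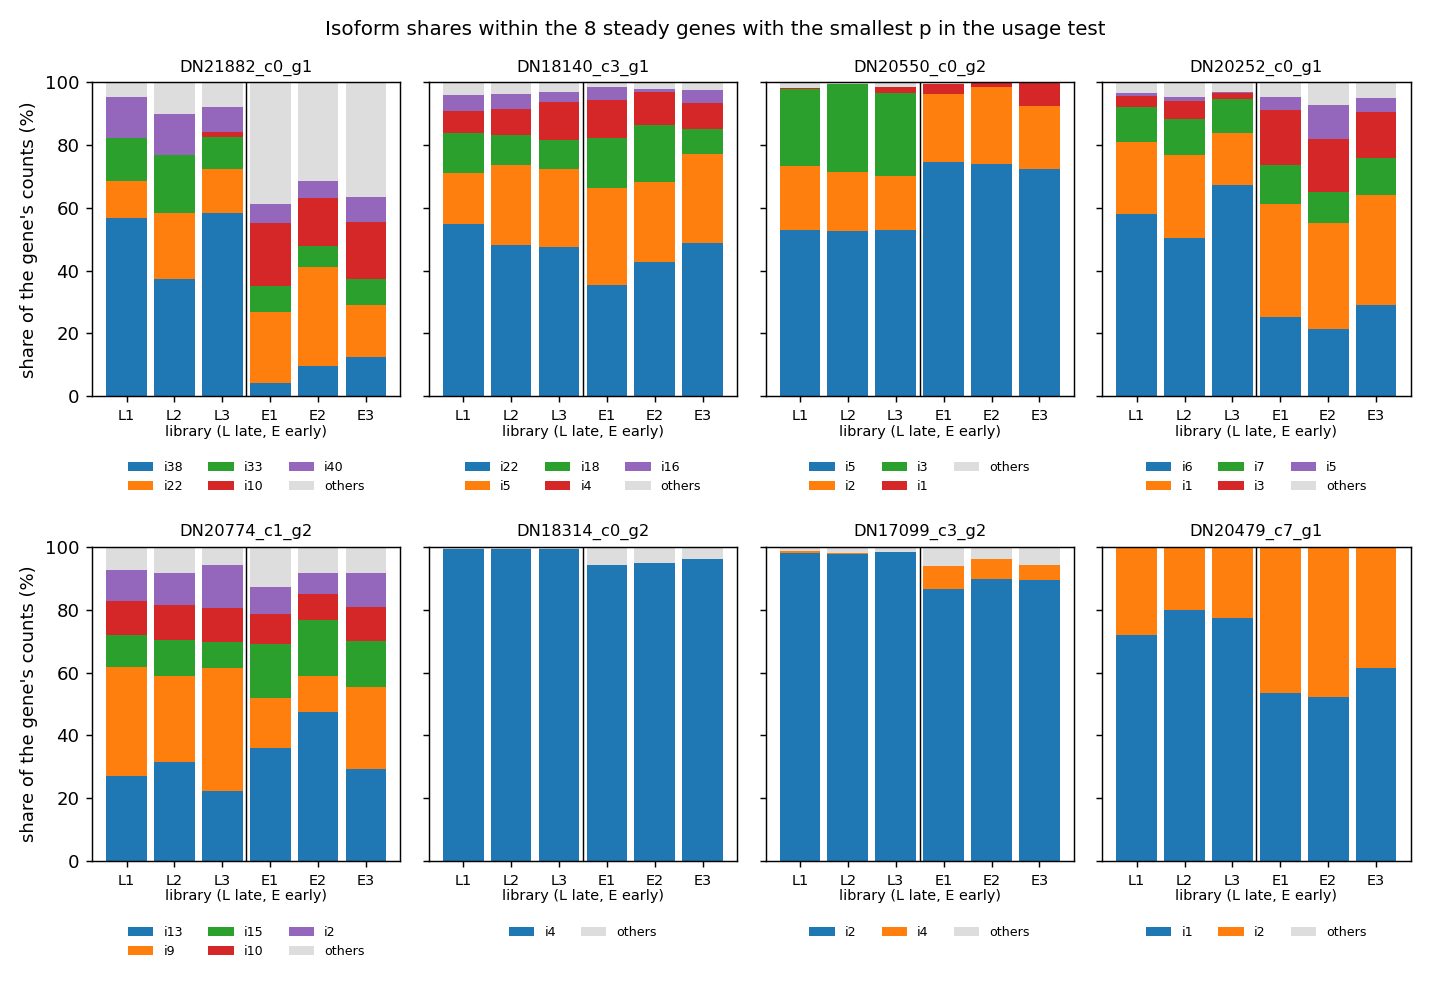
Share of a gene's counts (vertical axis, percent) held by each isoform in late libraries L1 to L3 and early libraries E1 to E3 (horizontal axis), for the 8 steady genes with the smallest p in the usage test; colours are up to 5 isoforms of highest level, grey is the rest, and the prefix TRINITY_ is left out of the names. In DN21882_c0_g1 isoform i38 holds 37.3 to 58.3% of late and 4.25 to 12.5% of early libraries, and in DN20550_c0_g2 isoform i3 holds 24.8 to 28.2% of late and none of the early libraries.

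Tested one by one, 17 of the 596 tested isoforms of steady genes were called. The quasi-likelihood test of edgeR, at an adjusted p of 0.05 and beyond a 2-unit log2 fold, called 6 of the 596 higher in late instars (1.01%), against 4.2% of 52912 transcripts. It called 11 lower (1.85%), against 3.02%. In either direction that is 2.85%, against 7.22%. The rule held each gene's sum within 1.3, which limits how far an isoform holding most of it can rise. In 19 of the 127 genes only 1 isoform was tested. These shares are therefore low partly by construction, and nothing is read from the difference. Without late replicate 1, early replicate 2 or early replicate 3 the number of called isoforms was 10 in place of 17. Calls over all transcripts were then 2336, 2397 and 2674, in place of 3818. The 17 isoforms belonged to 10 genes, and 4 of them held more than 10% of their gene on average in either stage. Beside those above, TRINITY_DN17157_c0_g1_i3 had 7.002, 9.77 and 5.58 CPM in late libraries, against 0.728, 0.736 and 1.02 CPM in early libraries (log2 fold change 3.16, SE 0.40; edgeR adjusted p = 0.00824, and between 1.25e-10 and 0.0832 over 13 alternatives, 12 of them past the threshold). Its late values were all above its early values, and it held 5.19 ± 1.56% of its gene in late and 0.554 ± 0.0627% in early libraries (SD, n = 3 each). It was singled out after its values were seen. RSEM divides reads that fit several isoforms by estimate, so values of isoforms that share most of their sequence are uncertain, also where one is listed at 0.

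The leading isoform changed between stages about as often in the steady genes as in the other abundant genes. The isoform with the highest stage mean differed in 10 of 108 genes (9.26%, against 8.44% of the other abundant genes), and in 3 it led every library of its stage. One was TRINITY_DN20252_c0_g1. The second, TRINITY_DN20762_c0_g1, had isoform i4 at 14.7, 28.7 and 35.1% in late libraries, against 44.3, 47.1 and 50.3% in early libraries, with an adjusted p of 0.281 in the edgeR usage test. The third, TRINITY_DN19564_c3_g1, divided its counts among 22 isoforms of which none exceeded 20.8% in an early library, and its adjusted p was 0.227. At the other end were genes with at least 5 isoforms of which one took nearly all counts. TRINITY_DN18019_c3_g2 had 98.3 ± 0.252% of its counts in isoform i2 in late libraries and 99.0 ± 0.288% in early libraries (SD, n = 3 each). In TRINITY_DN16668_c0_g1, TRINITY_DN22227_c1_g4 and TRINITY_DN21155_c2_g1 the leading isoform held at least 94.9% in every library.

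Some steady genes were linked in the assembly. Trinity groups genes into components of linked contigs, and the 127 genes fell in 125 components. Both genes of a pair were steady in 2 of them. TRINITY_DN14440_c7_g4 had 161 ± 20.7 CPM in late and 172 ± 7.26 CPM in early libraries, and its partner TRINITY_DN14440_c7_g6 had 204 ± 9.96 and 223 ± 9.15 CPM in late and early libraries (SD, n = 3 each). In the other pair, TRINITY_DN16002_c1_g1 had 130 ± 4.39 CPM in late and 151 ± 9.04 CPM in early libraries, and TRINITY_DN16002_c1_g2 had 115 ± 1.44 and 136 ± 9.03 CPM in late and early libraries (SD, n = 3 each). Both members of that pair were lower in every late than in every early library. Members of a component may share reads, so such pairs are not independent genes.

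A total of 103 steady genes had other genes in their component, 344 in all, of which 135 were tested and 25 (18.5%) called by the gene-level edgeR test, against 29.7% of all genes tested. A wide contrast, singled out after its values were seen, was in the component of the steady gene TRINITY_DN17821_c0_g3, which had 177, 146 and 160 CPM in late libraries, against 141, 148 and 140 CPM in early libraries. Its neighbour TRINITY_DN17821_c0_g2 had 770, 668 and 508 CPM in late libraries, against 17.3, 19.8 and 21.0 CPM in early libraries. The stages of the steady gene overlapped, and those of its neighbour were far apart, at a log2 fold change of 5.02 (SE 0.25; edgeR adjusted p = 1.48e-05). TRINITY_DN18104_c1_g1, a neighbour of the steady gene TRINITY_DN18104_c1_g2 and also singled out after its values were seen, had 238, 1.45 and 171 CPM in late libraries, against 3.17, 2.15 and 4.74 CPM in early libraries. Its highest-to-lowest ratio of 164 was larger, but late replicate 2 lay below all early libraries, so its stages overlapped.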

How the data were processed

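Reads of 6 libraries (3 late, 3 early) were trimmed by the authors with Trimmomatic 0.36, checked with FastQC 0.11.7, pooled for assembly with Trinity and quantified with RSEM. Which aligner and which RSEM version were used is not stated in these sources. What the authors deposited were expected counts of each transcript, not normalized, beside TPM, FPKM and the percent of its gene's TPM held by each isoform. FPKM entered no result.

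Library and stage were taken from the sample labels. Expected counts of all isoforms of a gene were summed and divided by the library total to give CPM. Rounded counts with more than 1 CPM in at least 2 libraries were tested, late over early, with edgeR 4.0.16 (TMM factors, glmQLFTest, and diffSpliceDGE for usage) in R 4.3.3, with Benjamini-Hochberg adjustment over all features tested. limma 3.58.1, DESeq2 1.42.0 and other settings were alternatives. On simulated counts diffSpliceDGE called more unchanged genes than its adjusted p states, so limma diffSplice is given beside it. limma diffSplice was not run on the simulated counts. p-values measure the spread between pools of siblings. No pair of libraries of the same stage was a duplicate, and pairs across stages were not checked for this.

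The members, tests and lists were chosen with earlier results of these data known. Genes named were the 8 of highest mean CPM, the 6 of smallest ratio, those nearest either limit, the 8 with the smallest usage p, the 4 with the most dominant isoform among genes of at least 5 isoforms, the 2 with most isoforms, and those sharing a component. Exceptions are marked, apart from counts of at most 5 and the called genes, whose names are given. Sequences and annotation were not used here.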

Additional observations from a re-analysis of the deposited data

How the results depend on the processing

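The number of steady genes was 127, and it was 29 and 429 with ratio limits of 1.2 and 1.5, 270 and 41 with minimums of 50 and 200 CPM, and 139 to 226 when 1 library was left out. With TMM factors 111 genes met the limits, of which 69 were among the 127, with RLE factors 122 (78 shared), and in TPM 124 (11 shared). The median ratio of the 127 was 1.36 in TPM. With a ratio limit of 1.2, the share kept when a library was added was 41.4, 50 and 72.5% for late replicates 1 to 3 and 39.7, 50.9 and 43.9% for early replicates 1 to 3. With a limit of 1.5 it was 73.5 and 73.3% for late replicates 1 and 2 and 75.9, 85.8 and 76.1% for early replicates 1 to 3. TMM factors gave 66.9% for late replicate 2 and 77.1% for early replicate 2, and RLE factors 79.7% for the last. The share of genes steady in late instars that were steady over all was 4.68 and 33.1% at limits of 1.2 and 1.5, and of those steady in early instars 5.20 and 32.04%. Leaving out a library moved these shares between 12.2 and 23.8% and between 13.9 and 24.5%.

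Usage calls numbered 6 of the steady and 228 of all genes at an adjusted p of 0.001, and 420 of all genes by the Simes combination. With 1 library left out they were 8 to 22 of the steady genes and 541 to 960 of all genes. Isoform calls in steady genes, 17 in all, were 0 at an adjusted p of 0.001 in the edgeR quasi-likelihood test (32 had an unadjusted p under 0.05, and the exact test and DESeq2 each called 16 at 0.001). At 0.05 they were 28 with DESeq2, 28 without a filter, and 10 to 22 with 1 library left out. Transcript calls over all genes, 3818, were 0 at 0.001 (6993 unadjusted, 3892 with the exact test, 4320 with DESeq2), and at 0.05 they were 6350 with DESeq2, 6028 with the exact test and 2243 to 4407 with 1 library left out. Gene calls at 0.001 were 2159. The cause of these shifts was not tested. The robust setting gave the same p-values in diffSpliceDGE and was left out of its alternatives.

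Late and early libraries share replicate numbers, but their deviations from the stage means correlated at 0.11, 0.02 and 0.22, so the numbers were not taken as pairs. With the replicate block, usage calls were 7 in the steady genes and 428 in all, isoform calls 0 in the steady genes (35 had an unadjusted p under 0.05) and 347 in all, and the usage call of TRINITY_DN17099_c3_g2 was among those lost (adjusted p = 0.0868).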
